A study of Arabidopsis thaliana with 8 samples.

Results

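Heat changed which mRNAs were found on polysomes in Arabidopsis thaliana seedlings, and 4 of the 8 arrays of the series measured this directly: 2 arrays of polysome-bound RNA after 38°C (PB38) and 2 of polysome-bound RNA at 22°C (PB22). The members are all 22810 probe sets of the ATH-1 array, control probe sets included, read on those 4 arrays and chosen by group label alone. The seedlings were wild type, ecotype Columbia-0, 7 days old, and whole. Heat lasted 45 min, and the controls at 22°C were taken straight from the growth chamber, so handling during the heat step was not matched by a mock step. The polysomal fractions of a sucrose gradient were pooled, with cycloheximide and chloramphenicol in the extraction buffer of heated and control seedlings alike. The other 4 arrays held total RNA of the same seedling samples (TOT22 and TOT38, 2 arrays each) and are used here only beside the polysome-bound values.

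A polysome is an mRNA carrying several ribosomes, and the heavy gradient fractions hold the mRNAs that are being translated. Heat in plants slows the start of translation on most mRNAs, while chaperone mRNAs, made under heat stress transcription factors, are loaded at once. Chaperones hold or refold proteins that lose their shape in heat. Ribosomal protein mRNAs are among the most abundant messages of a growing seedling, and their translation is known to respond to stress. Because whole seedlings were used, a lower value cannot be divided between fewer cells of a type and less mRNA per cell.

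The deposited values are log2 signals after RMA, which makes arrays alike in their overall distribution. On the PB38 arrays the authors then multiplied every value by the polysome content of that sample relative to 22°C, 0.558 for replicate 1 and 0.538 for replicate 2. These factors equal -0.84 and -0.89 on the log2 scale and -0.87 on average. The mean of the deposited values was 5.304 and 5.254 on the PB38 arrays, and 6.145 and 6.148 once the factor was divided out, against 6.151 to 6.179 on the other 6 arrays. By the methods, 1 factor applied to every gene of an array. All effects below are log2 differences, 38°C minus 22°C, with the factor divided out unless stated, so that 0 is the average of the array and not a constant amount of mRNA per seedling. An effect with the factor is 0.87 lower, and its 0 stands for an equal estimated amount on polysomes. A gene "rose" or "fell" where the limma fit over all 8 arrays gave a Benjamini-Hochberg adjusted p under 0.05 over all probe sets and a change of at least 2-fold.

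Without the factor, 1079 probe sets rose (4.73% of those tested) and 1480 fell (6.49%). With the factor kept, 472 rose (2.07%) and 8453 fell (37.1%). All 472 had also risen without it, the other 607 rises were no longer called, and 6973 probe sets fell that had not been called without it. The median effect over all probe sets was 0.02 without the factor and -0.85 with it, which is 55.5% of the 22°C signal. Of all probe sets, 51.8% had an effect above 0 without the factor and 6.78% with it. The effects spread widely around that centre. The lowest 1% lay below -1.99 and the highest 1% above 2.89, and the extremes were -4.55 and 9.36. The replicates gave effects that correlated with r = 0.873 across probe sets, which share their arrays and are not independent.

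**Figure D1:**
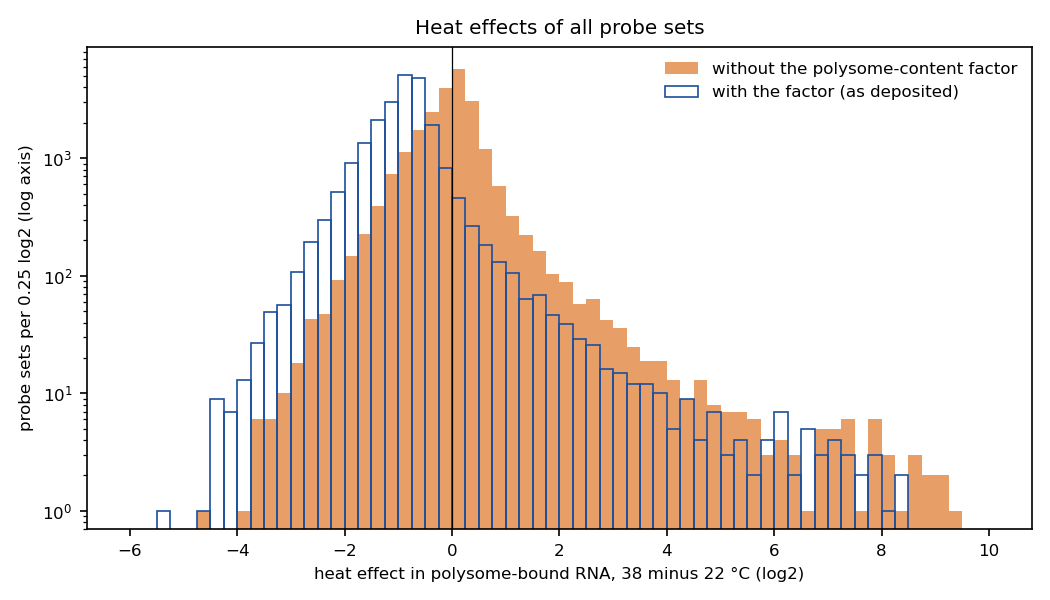
Number of probe sets (log axis) by heat effect in polysome-bound RNA (38°C minus 22°C, log2, bins of 0.25), filled without and outlined with the polysome-content factor, 22810 probe sets each. The factor shifts the whole distribution from a median of 0.02 to -0.85 and leaves its shape and its long right tail in place.

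The tail of rises was much longer than the tail of falls. Of the rises, 434 were at least 4-fold, 206 at least 8-fold, 109 at least 16-fold and 43 at least 64-fold. Of the falls, 209 were at least 4-fold, 24 at least 8-fold and 1 at least 16-fold. With the factor, 70 rises and 18 falls reached 16-fold. The rises started from low levels more often than the falls: 37.6% of the rises and 11.6% of the falls had a mean below 6 (log2) at 22°C, against 48.0% of all probe sets, so the size of a rise from so dim a signal is less sure than its direction. Among the 1440 probe sets at 10 or more at 22°C, 2.36% rose and 12.7% fell, while among the 5756 below 4, 1.08% rose and none fell by the limma fit. The split between rises and falls depended on the scaling. Rises were 42.2% of the calls, 56.1% with each array centred on its median, 53.1% after cyclic loess and 64.8% with arrays centred on the 24 Bacillus control probe sets. With the factor kept, rises were 5.29% of the calls, and 6.2% to 9.73% under those scalings.

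Small heat shock proteins and co-chaperones held 8 and 7 of the 100 largest effects, of which 50 belong to a probe set of 1 gene. The gene lists used here were drawn up by locus number or symbol. For families given by locus number, the membership is general knowledge of the family, since the annotation used here gives most of those loci no name. Small heat shock proteins bind unfolding proteins and keep them from clumping. In this family 9 genes had a probe set of their own, and 8 of them rose (all of them also with the factor), and all 8 stood among the 100 largest effects on the array. Their median effect was 7.37, and 6.50 with the factor, against 0.02 and -0.85 over all probe sets. AT1G52560 held the first rank of 22810. Its signal was 4.62 and 3.86 at 22°C and 13.55 and 13.65 at 38°C, or 12.71 and 12.76 as deposited. The effect was 9.36 (SE 0.24, adjusted p = 5.89e-06), a 658-fold rise without the factor. AT1G53540, the third in rank, read 6.22 and 4.17 at 22°C and 14.14 and 14.27 at 38°C, an effect of 9.01 (SE 0.57). ATHSP22.0, a small heat shock protein of the endoplasmic reticulum, read 5.29 and 4.60 at 22°C and 13.60 and 13.35 at 38°C, an effect of 8.53 (SE 0.23). In each of the 3 genes the replicates lay closer together at 38°C than at 22°C. The exception in the list was AT4G21870, at 8.43 and 8.80 before heat and 8.18 and 9.04 after it, with an effect of 0.00 (adjusted p = 0.996).

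Small heat shock proteins act together with HSP70 and HSP90, which use ATP, and with co-chaperones that carry clients to them. Of 15 co-chaperones and other thermotolerance factors, 11 rose (73.3%, beside 4.73% of all probe sets). All 11 also rose with the factor. The median effect was 3.69. Hop3, which links HSP70 to HSP90, read 4.99 and 4.94 at 22°C and 12.71 and 12.74 at 38°C. Its effect of 7.76 (SE 0.20, adjusted p = 5.89e-06) came with replicates within 0.05 of each other at both temperatures. Fes1A, which binds and protects HSP70, read 6.74 and 6.43 at 22°C and 12.83 and 12.67 at 38°C, an effect of 6.17. HSA32, needed to keep acquired thermotolerance, had an effect of 5.23, SGT1A, an HSP90 partner, 4.66, and BOB1, which resembles small heat shock proteins in action, 3.69. Within families the paralogs differed. Hop2 rose with an effect of 3.08, while Hop1 had 0.44 (adjusted p = 0.0406), under the 2-fold limit. Fes1B and Fes1C, with effects of 0.52 and 0.64, were not called either. Of the HSP70, HSP90 and HSP100 genes on the list, 3 had a probe set of 1 gene. AT3G09440, an HSP70 locus, and Hsp70-2 rose, with effects of 3.24 and 2.35, and CLPB2, of the HSP100 family, at 0.72 was not called. Among the 12 largest rises were also 3 genes of no list and with no name in the annotation: AT1G21550 (effect 7.98, rank 13), AT1G72660 (7.33, rank 24) and AT1G44414 (7.11, rank 26). AT1G21550 read 4.82 and 4.68 at 22°C and 12.70 and 12.76 at 38°C and had the smallest adjusted p of the named genes, 3.67e-06. Every count for small heat shock proteins and co-chaperones was the same under the 3 other scalings and with any single polysome-bound array left out.

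**Figure D2:**
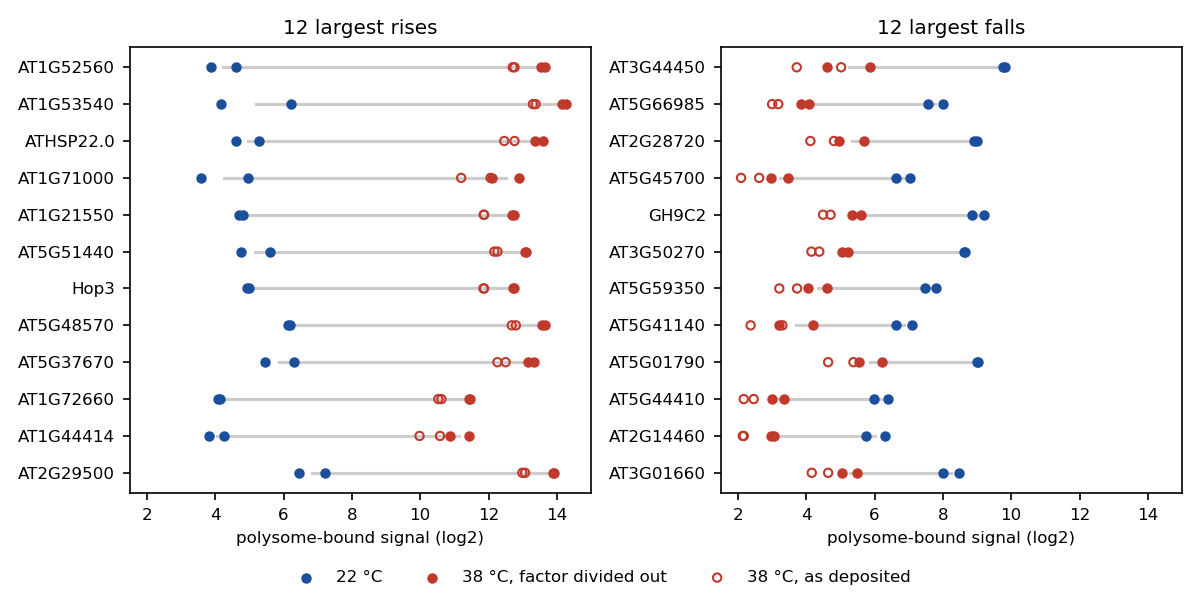
Signal (log2) of the 12 largest rises (left) and the 12 largest falls (right) among genes with a probe set of their own, 1 dot per array, with 22°C in blue and 38°C in red (filled with the factor divided out, open as deposited) and a line joining the means. At 38°C the rises reach 10.87 to 14.27 without the factor. No array of 1 temperature overlaps an array of the other in the 24 genes. Without the factor this was a condition for choosing them, and it also holds with the factor.

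Compartments other than the cytosol were covered by 2 further lists. Of 14 genes of folding and quality control in the endoplasmic reticulum, 3 rose (21.4%, beside 4.73% of all probe sets) and none fell. Under Bacillus control centring 5 rose. DER1, a derlin that takes part in disposal of misfolded secretory proteins, read 7.71 and 7.75 at 22°C and 11.59 and 11.32 at 38°C, an effect of 3.73 (SE 0.17, adjusted p = 4.05e-05), and its relative DER2.1 had 2.14. BZIP28, a membrane-held transcription factor that senses folding stress there, had 2.27. The parallel sensors BZIP17 and BZIP60 had effects of 0.77 and 0.41 and were not called. In the plastid, Cpn60beta2, a chaperonin subunit, rose from 9.55 and 9.22 to 12.58 and 12.40, an effect of 3.11, and Cpn60beta3 rose by 1.25. These were 2 of 5 chaperonin and protease genes of organelles (40.0%). With the factor Cpn60beta3 had 0.39 and was not called, and 2 others of the list fell.

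ATG8 proteins, which coat the membranes of autophagosomes, are a family with several members on the array. All 10 genes of the list had effects above 0, the lowest 0.26. Of these, 3 rose (30.0%, beside 4.73% of all probe sets): ATG8E by 2.26, ATG8H by 1.65 and APG8A by 1.18. With the factor only ATG8E was still called, and under each of the 3 other scalings 5 of the 10 rose. The count was 1 without PB22 replicate 1 and 5 without PB38 replicate 1. ATG8H lost its call without PB22 replicate 1 (effect 1.35, adjusted p = 0.0502), and APG8A lost it without PB22 replicate 1 (1.08, 0.052) and, on the 2-fold limit, without PB38 replicate 2 (0.97). Among the U-box ubiquitin ligases, which mark proteins for breakdown, PUB19 rose by 2.69. Of 30 vesicle sorting genes 2 rose (6.67%, beside 4.73% of all probe sets) and 3 fell (10.0%, beside 6.49%). VPS60.1, an accessory of the ESCRT complex, went from 7.84 and 7.93 to 10.22 and 10.29, an effect of 2.37.

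Among genes of drought and cold responses, the regulators and the protective proteins did not move as 1 block. Of 18 such genes, 5 rose (27.8%, beside 4.73% of all probe sets) and 2 fell (11.1%, beside 6.49%). STZ, a zinc-finger repressor induced by many stresses, read 6.08 and 5.29 at 22°C and 9.46 and 9.08 at 38°C, or 8.62 and 8.19 as deposited. Its effect was 3.59 (SE 0.41, adjusted p = 0.00182), and 2.72 with the factor. TIL, a temperature-induced lipocalin of membranes, rose from 10.91 and 11.27 to 13.59 and 13.67, an effect of 2.54. AtLEA4-1, a protective protein of late embryogenesis, rose by 2.59, and COR47, a dehydrin, by 1.93. The AP2-type transcription factors tny and TINY2 fell, with effects of -1.11 and -1.46. The call of tny was lost under median centring, cyclic loess and Bacillus control centring, and without PB38 replicate 2 its effect was -0.92, under the 2-fold limit. Without PB38 replicate 1, TINY2 had -1.42 (adjusted p = 0.0519). The cold-response genes COR27 and COR15B differed more between replicates than between temperatures. COR27 read 8.30 and 3.42 at 22°C and 6.43 and 3.58 at 38°C, and COR15B read 12.32 and 9.20, then 11.87 and 7.66. Replicate 1 was the higher in each case, and the temperatures overlapped.

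Calcium sensors and transcription factors were read by family. CML37, a calmodulin-like calcium sensor, read 3.07 and 3.11 at 22°C and 6.16 and 5.96 at 38°C, an effect of 2.97 (SE 0.13, adjusted p = 3.99e-05) from a dim start. CML23 rose by 1.60 and CML42 fell, with an effect of -1.81. Of the 7 genes on the list, 2 rose (28.6%, and 4 under Bacillus control centring) and 1 fell (14.3%), beside 4.73% and 6.49% of all probe sets. The list leaves out AT1G21550, a calmodulin-like locus without a name in the annotation, which had an effect of 7.98. Of 17 bZIP factors 3 rose (17.6%: bZIP58, BZIP28 and bZIP44), of 18 bHLH factors 1 rose (5.56%) and 2 fell (11.1%), and of 7 WRKY factors, known from defence, none was called in either direction. Of 18 auxin-response genes 3 rose (16.7%) and none fell. GH3.3 and WES1, both enzymes that join auxin to amino acids, had effects of 2.05 and 1.94, and IAA30, an Aux/IAA repressor, 1.02. With the factor kept, 2.07% of all probe sets rose and 37.1% fell. Calmodulin-like genes then gave 1 rise and 2 falls, and bZIP factors 2 and 4. The bHLH factors gave 0 and 14, WRKY factors 0 and 3, and auxin-response genes 2 and 5. CML23, bZIP44, IAA30 and bHLH121, the bHLH factor that rose, were then no longer called. The 3 auxin calls and those of bZIP58 and bZIP44 were not stable to the loss of an array. Without PB22 replicate 2, GH3.3 had an effect of 1.70 (adjusted p = 0.0726), and without PB38 replicate 1 it had 1.82 (0.0675). Without PB22 replicate 1, WES1 had 1.58 (0.0846), bZIP58 2.15 (0.0944) and IAA30 0.94, and without PB38 replicate 2 they had 1.61 (0.073), 1.79 (0.0625) and 0.94. The call of bZIP44 was lost with each of the 4 arrays left out, with effects of 0.95 to 1.24.

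**Figure D3:**
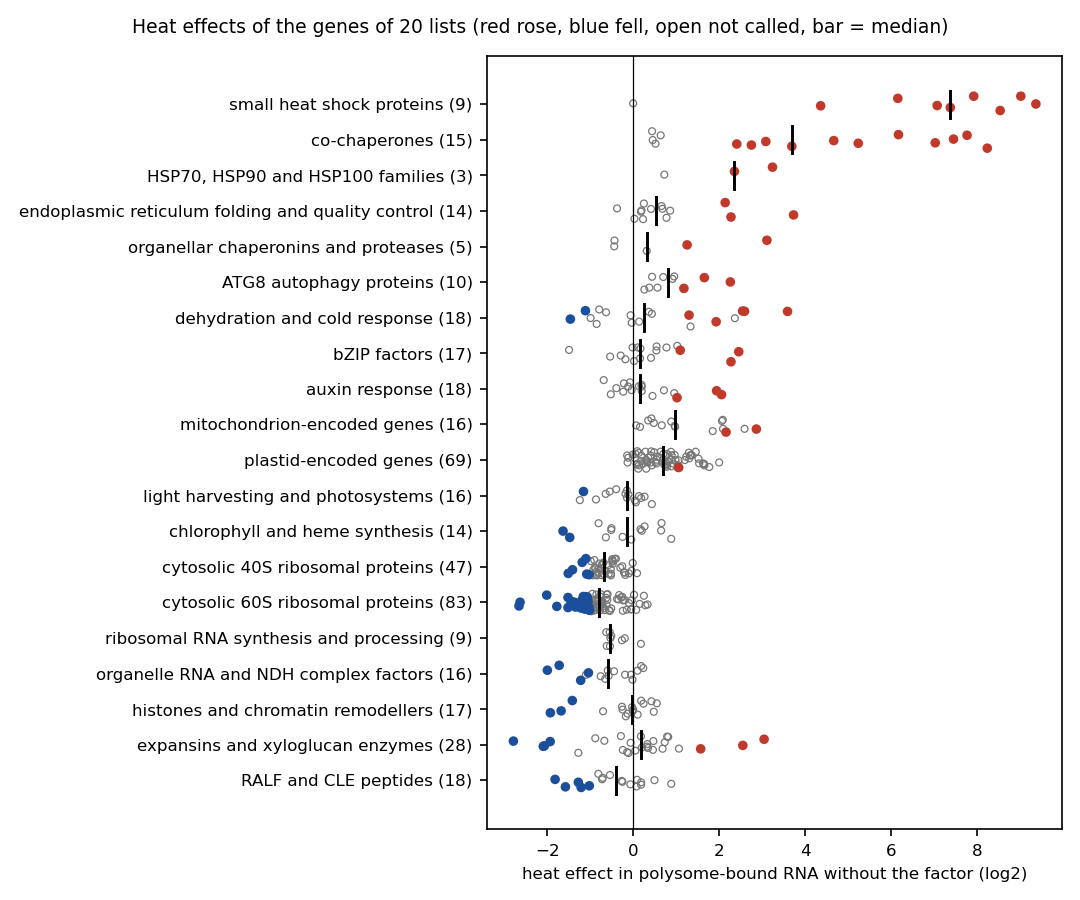
Heat effect in polysome-bound RNA without the factor (log2) of each gene in 20 lists, with the number of genes in brackets, filled red where the gene rose, filled blue where it fell, open where it was not called, and a bar at the median. Small heat shock proteins have a median of 7.37 and the 60S ribosomal proteins one of -0.81. The medians of the other lists run from -0.69 (40S ribosomal proteins) to 3.69 (co-chaperones).

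Genes of the ribosome itself went the other way. Of 83 genes for proteins of the large cytosolic (60S) subunit, none rose and 26 fell (31.3% of the list, beside 6.49% of all probe sets and 12.7% of those at 10 or more at 22°C). Their median effect was -0.81. Over all probe sets the median was 0.02, and over those at 10 or more at 22°C it was -0.35. Of the 83 genes, 77 had effects below 0. In 73 of the 83 both 38°C arrays lay below both 22°C arrays, as in 31.1% of all probe sets. These last counts were not set against probe sets of like level, here or for the 40S genes. The median signal of the 83 genes was 11.24 and 11.16 on the PB22 arrays and 10.30 and 10.11 on the PB38 arrays. Of the 60 genes at 10 or more at 22°C, 21 fell. For the small (40S) subunit, 6 of 47 genes fell and none rose, with a median of -0.69 and 46 effects below 0, and the arrays lay apart, 38°C below 22°C, in 39. Of the 32 40S genes at 10 or more at 22°C, 4 fell (12.5%), close to the 12.7% of all probe sets at that level, so the count of 40S falls does not stand out from other bright genes. With the factor, 73 of the 60S genes and 43 of the 40S genes fell, where 37.1% of all probe sets did. The medians were then -1.68 and -1.56, beside -0.85 over all probe sets. The counts without the factor moved with the processing. With 16, 13 and 11 falls, the 60S count was lower under median centring, cyclic loess and Bacillus control centring, and the 40S count was 3, 3 and 2. Leaving out a polysome-bound array gave 18 (without PB38 replicate 2) to 37 (without PB38 replicate 1) falls of 60S genes and 4 to 11 of 40S genes at the same arrays.

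The ribosomal protein genes that fell furthest were AT5G67510, AT2G32220 and AT3G55170 of the large subunit. AT5G67510 read 11.45 and 11.01 at 22°C and 8.64 and 8.50 at 38°C, or 7.80 and 7.61 as deposited, an effect of -2.66 (SE 0.21, adjusted p = 0.000412). AT2G32220 read 8.67 and 8.20, then 5.60 and 6.0, an effect of -2.63. AT3G55170 read 7.29 and 7.07, then 5.39 and 4.94, an effect of -2.01 (SE 0.26). In the 40S list AT3G57490, AT1G23410 and AT2G21580 led, with effects of -1.51, -1.41 and -1.19, the last of which was no longer called under Bacillus control centring. The genes with effects above 0 were dim ones. The highest of them, AT2G40010, read 5.63 and 5.72 at 22°C and 6.13 and 5.88 at 38°C, and others, such as AT3G10950 at 2.74 and 2.77, gave hardly any signal. Genes for ribosomal RNA synthesis and processing gave a median of -0.53, with none of 9 called by limma in either direction. With the factor kept 8 of the 9 fell, as did 37.1% of all probe sets.

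Of 17 histone and chromatin genes 3 fell (17.6%, beside 6.49% of all probe sets), all of them H2B histones, and none rose. HTB1 went from 9.83 and 9.98 to 7.85 and 8.10, an effect of -1.93 (SE 0.14, adjusted p = 0.000308), HTB2 had -1.68 and HTB11 -1.42. Expansins and xyloglucan enzymes loosen cell walls, and here the family split. Of its 28 genes, EXPA16, EXLA1 and EXLA2 rose (10.7%, beside 4.73% of all probe sets), with effects of 3.04, 2.55 and 1.57. Another 4 fell (14.3%, beside 6.49%), among them EXPA4, EXPA8 and XTH32 with -2.79, -2.09 and -2.07. EXPA4, the largest of these falls, read 9.75 and 9.52 at 22°C and 6.64 and 7.05 at 38°C. The calls of XTH32, EXPA8 and EXLA2 were lost with an array left out: XTH32 had -1.40 to -2.25 without PB22 replicate 2 or either PB38 array (adjusted p = 0.0994 to 0.172), EXPA8 had -1.77 (0.0618) without PB38 replicate 1 and -1.73 (0.0664) without PB22 replicate 2, and EXLA2 had 1.31 (0.0671) without PB38 replicate 1 and 1.26 (0.0748) without PB22 replicate 1. GH9C2, a cellulase, fell from 8.84 and 9.21 to 5.33 and 5.60, an effect of -3.56 (SE 0.19, adjusted p = 7.98e-05). It was 1 of 2 falls (13.3%) among 15 cellulases of that family. Of 18 RALF and CLE signal peptide genes 5 fell (27.8%) and none rose. RALFL34 went from 10.95 and 10.70 to 9.05 and 8.96, an effect of -1.82.

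Among all genes with a probe set of their own the largest fall was that of AT3G44450, for which the annotation gives no name. It read 9.77 and 9.81 at 22°C and 5.86 and 4.61 at 38°C, an effect of -4.55 (SE 0.48, adjusted p = 0.0013), or 4.26% of the 22°C signal, and -5.42 with the factor. AT5G66985 followed with an effect of -3.82, AT2G28720 with -3.62 and AT5G45700 with -3.60. Of the 12 largest falls, 11 bear no name in the annotation used. That the arrays of both temperatures lie apart was a condition for choosing them, which all 1480 falls met. Of the 100 largest falls over all probe sets, 97 passed the test and 98 of the 100 also fell in total RNA. Of the 100 largest rises, all passed it and rose in total RNA too.

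Nuclear genes of photosynthesis were read next. Of 16 genes of light harvesting and the photosystems, 1 fell (6.25%, near the 6.49% of all probe sets), LPA66, a factor of RNA editing in the plastid, with an effect of -1.17. Its call was lost under Bacillus control centring and, just under the 2-fold limit, without PB38 replicate 2 (adjusted p = 0.0153). LHCB4.1 and LHCB4.2, antenna proteins of photosystem II, had effects of -0.64 (adjusted p = 0.012) and -0.87 (0.0105), under the 2-fold limit. None of 10 Calvin cycle and starch genes was called without the factor. CHLM, an enzyme of chlorophyll synthesis, fell from 11.87 and 12.28 to 10.29 and 10.59, an effect of -1.63 (SE 0.24, adjusted p = 0.0044), and LIL3:2, needed in the same pathway, had -1.48, the 2 falls (14.3%) among 14 genes of chlorophyll and heme synthesis. Of 16 nuclear genes for organelle RNA editing and for forming the plastid NDH complex, 4 fell (25.0%) and none rose. CRR21 had -2.0 and CRR41 -1.72.

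Transcripts of the organelle genomes were higher on the PB38 arrays relative to the array average, with few single genes past the test under the main scaling. These RNAs have no cytosolic ribosomes, and in their own compartments they are translated on ribosomes that sediment too. Of 69 plastid-encoded genes 65 had effects above 0 and the median was 0.70, but only ccsA was called, at 10.30 and 9.87, then 11.03 and 11.20, an effect of 1.03. Its call was lost without PB22 replicate 2 (0.82, adjusted p = 0.122), without PB38 replicate 1 (1.12, 0.0693) and without PB38 replicate 2 (0.95, 0.101). The median of the 69 genes was 8.89 and 7.68 on the PB22 arrays and 9.25 and 9.04 on the PB38 arrays. The 22°C replicates thus differed more from each other than replicate 1 did between temperatures, and the median effect was 0.29 in replicate 1 and 1.10 in replicate 2. The same replicate gap stood in total RNA, with 10.16 and 8.86 at 22°C. With the factor, 26 of the 69 effects were above 0 and 2 genes fell, psbM and ndhI, so the direction depends on the factor. The count of rises depends on the scaling and on single arrays: 3 plastid-encoded genes rose under median centring, 3 under cyclic loess and 16 under Bacillus control centring, 3 without PB22 replicate 1, and none by limma with any other of the 4 arrays left out.

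All 16 mitochondrion-encoded genes had effects above 0, with a median of 0.97. Of these, 2 rose (12.5%, beside 4.73% of all probe sets): ccb452, of cytochrome c maturation, by 2.86 and nad9, a subunit of complex I, by 2.16. With the factor the median was 0.10 and 10 of the 16 effects were above 0, so the direction again depends on the factor. Only ccb452 was then called, and nad9 had 1.29. The medians of the 16 were 4.22 and 4.28 at 22°C and 5.80 and 4.92 at 38°C, with PB38 replicate 1 the higher. In nad6 that replicate read 7.33 and the other 4.28, against 3.23 and 3.21 at 22°C. Without PB38 replicate 1, ccb452 had an effect of 2.11 (adjusted p = 0.0589) and nad9 1.38 (0.126), and both calls were lost without either PB22 array as well. The probe set of ccb452 can match more than 1 transcript. Under Bacillus control centring 10 of the 16 rose, and without PB38 replicate 2 it was 4. In total RNA 8 of the 16 genes rose, with a median of 1.82.

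**Figure D4:**
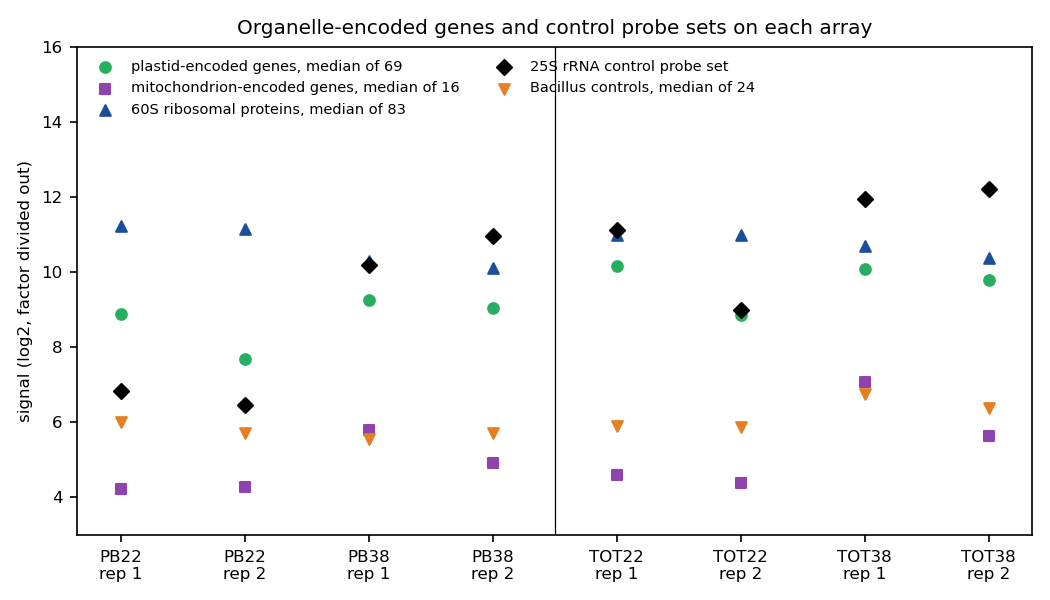
Median signal (log2, factor divided out) of the plastid-encoded, mitochondrion-encoded and 60S ribosomal protein genes, the 25S rRNA probe set and the median of 24 Bacillus control probe sets on each of the 8 arrays. On the polysome-bound arrays the 25S rRNA signal goes from 6.83 and 6.46 to 10.20 and 10.97, and the 60S genes from 11.24 and 11.16 to 10.30 and 10.11.

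Control probe sets moved with temperature beside these values. The 25S rRNA probe set read 6.83 and 6.46 on the PB22 arrays and 10.20 and 10.97 on the PB38 arrays, an effect of 3.94 (adjusted p = 0.00629), and 11.13 and 9.00, then 11.96 and 12.23 in total RNA. All 24 probe sets of the Bacillus control transcripts had effects below 0, from -0.37 to -0.02, none of them called, while in total RNA they went from 0.40 to 0.92. The signal of the 3′ end minus that of the 5′ end, a sign of RNA length, was followed in 6 pairs of control probe sets. For GAPDH it was 1.22 and 1.20 at 22°C and 0.89 and 0.68 at 38°C. The difference between temperatures in the first set of pairs was -0.43 for GAPDH, -0.28 for ubiquitin and -0.07 for actin. In the second set it was -0.37 for actin, -0.08 for GAPDH and 0.08 for ubiquitin, so the pairs did not move alike. The part of these shifts in the organelle and ribosomal protein values was not tested. Of the tissue marker lists drawn up for green tissue, root, seed and flower, only the root gene EXPA7 had a probe set of its own, with an effect of 0.79 that was not called, so the makeup of the seedlings could not be followed through markers.

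Most polysome-bound changes had a counterpart in total RNA. Across probe sets the effects in both RNA populations correlated with r = 0.928 (Spearman rho 0.830), as a description over probe sets of the same seedling samples. Of the 1079 rises on polysomes 868 also rose in total RNA and 211 were not called there, and of the 1480 falls 1056 fell and 424 were not called. No probe set was called in opposite directions. The small heat shock proteins had a median of 7.37 on polysomes and 7.81 in total RNA. The 60S genes had -0.81 and -0.36, with 26 falls on polysomes and 4 in total RNA, and the 40S genes -0.69 and -0.32, with 6 falls and 2. Of the genes that rose even with the factor, 3 were not called in total RNA: bZIP58, GH3.3 and AT3G28530, whose probe set can match other transcripts. Their effects in total RNA were also above 0, at 1.725 (adjusted p = 0.0503 by limma), 1.195 (0.0715) and 0.99. They missed the call there and are not shown to rise on polysomes alone.

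The difference between the effects in both populations was tested with the factor divided out. Without pairing, none of the 22810 probe sets passed in either direction by limma, although the unadjusted p was under 0.05 in 549 above and 783 below 0. With the seedling sample as a block, since each sample gave RNA of both kinds, the difference was above 0 in 89 probe sets (0.39%) and below 0 in 222 (0.973%). The 60S list held 16 of those below 0 and the 40S list 3. AT3G55170 had the largest such difference among the named genes, -1.80 (SE 0.16, blocked adjusted p = 0.00553): its polysome-bound effect was -2.01 and its total effect -0.22. CHLM followed, with -1.45 (blocked adjusted p = 0.0128), since its effect in total RNA was -0.18. The chaperone lists held no called difference, with median differences of -0.18 for the small heat shock proteins and -0.11 for the co-chaperones. These calls rest on the scaling and on the 38°C samples. The fit with the block leaves fewer residual degrees of freedom than the fit without pairing, and fewer still with a sample left out. With either 38°C sample left out, no probe set passed with the block, and with both populations centred on the Bacillus controls 17329 were above 0 and 5 below.

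**Figure D5:**
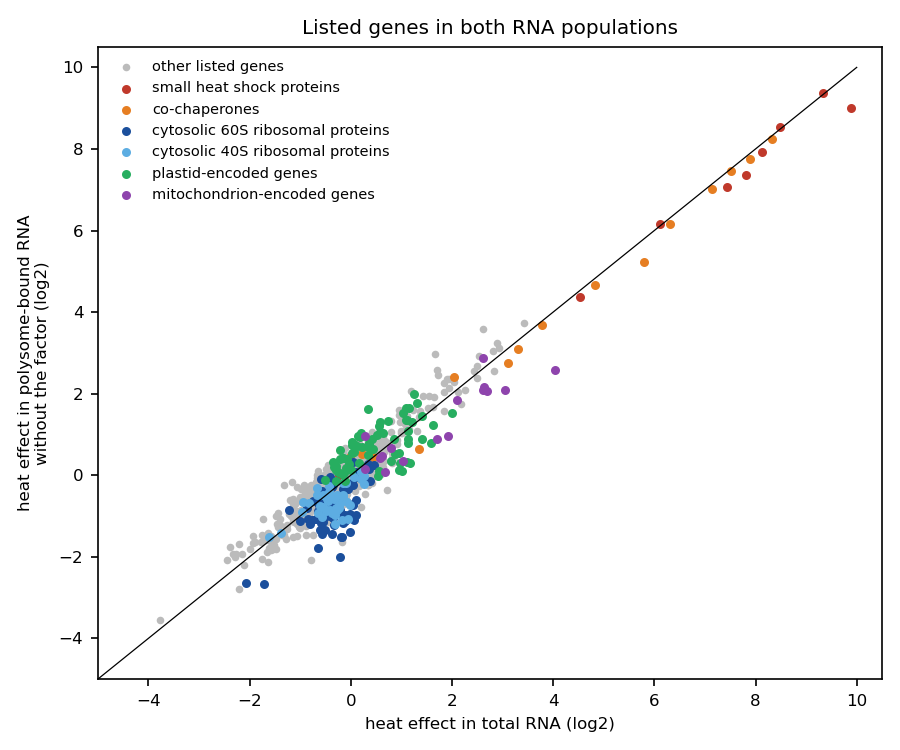
Heat effect in polysome-bound RNA without the factor against that in total RNA (both log2) for the genes of all lists, 1 dot per gene, coloured for 6 lists, with a line of equal effects. The small heat shock proteins lie near the line with medians of 7.37 and 7.81, and the 60S ribosomal proteins lie mostly below it, with medians of -0.81 and -0.36.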

How the data were processed

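The authors deposited 1 log2 value per probe set and array, produced with RMA in affy according to the submitters' processing notes (versions not given in the sources used here). On the PB38 arrays they include the factor, whose log2 was subtracted here. Probe sets were named through GEO's platform annotation and RefSeq (TAIR10.1): 13513 had 1 gene, 503 several and 8794 none listed, so many genes lack a name here. limma 3.58.1 (R 4.3.3) fitted 1 mean per group over 8 arrays, with 4 residual degrees of freedom, and was tested on simulated data. Replicate differences in polysome-bound and total RNA of the same samples correlated across probe sets (r = 0.786 at 22°C, 0.762 at 38°C). The 4 residual degrees of freedom are therefore not independent, which this fit did not model. Fitted on the 4 polysome-bound arrays alone, 1073 probe sets rose and 1428 fell. Genes are given by the probe set highest on average. Named genes (129) were the 12 largest changes each way, up to 3 called each way per list, the 6 smallest adjusted p-values each way, and rises with the factor not called in total RNA. All but the last kind had to be called, with both arrays of 1 temperature above both of the other. Members and the 56 lists (52 with a gene) were chosen with earlier results of these data known, and the lists were redrawn once the annotation was at hand. The alternatives were other scalings, a filter on dim probe sets, treat, 1 value per gene, blocks and arrays left out. Bacillus control centring was chosen after seeing the data. The number of arrays limits the precision. No sequence or genome was used here.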

Additional observations from a re-analysis of the deposited data

Results flagged for a closer look

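Of the named genes, 9 had a heat effect that differed between polysome-bound and total RNA when the seedling sample was a block (adjusted p under 0.05 over all probe sets), 4 above 0 and 5 below. Without the block their adjusted p ran from 0.725 to 0.916. The differences above 0 were 1.32 for CML37, 0.98 for STZ, 0.94 for AT3G28530 and 0.88 for AtLEA4-1. Those below 0 were -1.80 for AT3G55170, -1.45 for CHLM, -1.29 for UBC20, a ubiquitin-conjugating enzyme, -0.94 for AT5G67510 and -0.87 for AT2G21580. The 3 loci without a name among these 5 are ribosomal protein genes. None of the 9 was called with either 38°C sample left out, as no probe set was.

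The 25S rRNA control probe set rose by 3.94 on the polysome-bound arrays (limma adjusted p = 0.00629), or 3.08 with the factor. As 1 of the 22810 probe sets tested, it counts among the 1079 rises. The higher values were found on both 38°C arrays.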

How the results depend on the processing

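Keeping the factor changed 1079 rises and 1480 falls to 472 and 8453. Under Bacillus control centring there were 1700 rises and 922 falls, under treat against 1.5-fold 641 and 609, with 1 value per gene (fewer features) 547 and 794 (242 and 4663 with the factor), and with no minimum fold 2049 and 3046. Leaving out 1 polysome-bound array gave 873 to 1026 rises and 1018 to 1414 falls, and with the factor 457 to 483 and 8013 to 8857. Median centring moved the median effect from 0.02 to 0.17 and Bacillus control centring to 0.25. The 60S falls (26) were 16, 13, 11 and 73, and the 40S falls (6) 3, 3, 2 and 43, under median centring, cyclic loess, Bacillus control centring and the factor kept, and 18 to 37 and 4 to 11 with an array left out. Beyond what their construction fixes, the cause was not tested.

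The replicate number is shared across temperatures, and by the methods each factor compares 38°C with 22°C within a biological replicate. Differences between the replicates at 22°C and at 38°C correlated with r = 0.438 across probe sets. The main fit did not pair by the replicate number. With it as a block, 1253 probe sets rose and 1710 fell, and no named gene lost its call. For the difference from total RNA (0 above and 0 below with or without any 1 array), the seedling-sample block gave 89 and 222, with Bacillus control centring 17329 and 5 (3738 above without the block), with median centring 138 and 535, with cyclic loess 50 and 177, without 22°C sample 1 217 and 300, and without 22°C sample 2 42 and 141.

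Of the 129 named genes, 75 kept their call in all 12 alternatives, 81 in all but the factor kept and 88 with each of the 4 arrays left out. None reversed under those 12. Dim signals at 22°C limit the size of the largest rises.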
